A study of Mus musculus and Homo sapiens with 15 samples.

Results

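Expression of 37 genes for heat shock proteins and their co-chaperones was followed through mouse tumours with the p53 R282W mutation, C57 grafts and U937 cells that express p53 R282W, with and without arsenic trioxide (ATO). The genes were chosen as a list of symbols and not by a cut on their measured levels, though with earlier results of these data known. The list held 7 genes of the HSP70 family, 3 of the related HSP110 and HSPA4 exchange factors, 3 mitochondrial chaperones, 2 cytosolic HSP90 genes, 5 small heat shock proteins and 7 J-domain co-chaperones. It also held 2 BAG exchange factors, 2 heat shock factors, 5 HSP90 co-chaperones and the collagen chaperone Serpinh1. All 37 were found, each listed once, among the 52340 genes of the W/W mouse table, the 56691 of the C57 mouse table and, as their human counterparts, the 61806 of the U937 table.

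Heat shock proteins are chaperones that hold or refold unfolded proteins. HSP70 proteins bind exposed stretches of a client under the control of J-domain co-chaperones, which bring the client and start ATP hydrolysis, and of exchange factors (HSP110, HSPA4 and BAG proteins), which release it. HSP90 takes over later folding steps of kinases, hormone receptors and mutant p53 with the help of its own co-chaperones. The transcription factor HSF1 is held inactive by chaperones, is set free when unfolded proteins accumulate, and then binds heat shock elements in the promoters of Hspa1a, Hspa1b, Dnajb1, Hsph1 and other genes. Arsenic compounds are among the agents known to start this response in cultured cells. T-cell lymphomas of the thymus arise in mice with defective p53.

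The study set out to compare T-lymphomas with and without ATO, by RNA sequencing of 15 libraries. W/W mice are homozygous for p53 R282W, and their thymus tumours were taken on day 150 after birth from mice given water (n = 3), from ATO-treated mice whose tumours progressed (n = 3) and from ATO-treated mice whose tumours regressed (n = 3). The C57 libraries came from grafted cell-line tumours in C57 mice labelled wild type, treated with ATO (n = 2) or with PBS, a buffered salt solution (n = 2); the grafted cells are not named in the labels. U937 cells, a myeloid leukaemia line of human origin in which p53 R282W was expressed, gave 1 PBS and 1 ATO library. Since outcome defines the ATO groups of W/W mice, treatment and outcome cannot be told apart in a comparison of either with water. The dose of ATO and its duration are not given in the sources used here, and nothing says what a replicate number marks, so p-values measure only the spread between these samples.

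Total counts ran from 12800367 to 17550594 in the W/W libraries, from 12922147 to 15637644 in the C57 libraries and from 16454534 to 17872972 in U937. Some libraries stood apart from the rest of their group. Progressing replicate 2 had a mitochondrial share of counts of 8.83%, against 4.70% and 4.86% in the other progressing libraries, and was the highest of its group for 22 of the 37 genes (59.5%, against 41.6% of all genes ranked). Water replicate 2 was the highest of its group for 22 of 36 ranked genes (61.1%, against 45.4% of all genes). In the C57 grafts, ATO replicate 2 exceeded ATO replicate 1 for 27 of the 37 genes (73.0%, against 48.7% of all genes), while PBS replicate 2 exceeded PBS replicate 1 for 17 of 36 (47.2%, against 49.5%). Regressing replicate 3 carried a summed level of 9 adipocyte markers of 5703 CPM (counts scaled to the library's total) and a mitochondrial share of 8.48%. Values without 1 of these libraries are given where it changed a call or a direction named below.

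The promoters of the inducible genes are shown first, since heat shock elements are what HSF1 reads. Promoters covered 250 bases before to 50 after the start of transcription. Mouse promoters came from RefSeq (GRCm38.p6), which had entries for 30 of the 37 genes and none for Hspa8, Hspa13, Hspa9, Hsp90aa1, Hsp90ab1, Cryab and Hsf1. Human promoters were read from GRCh38 at the canonical starts of GENCODE v44, with no entry for HSPB11. The element was searched as an inverted pair of units, GAANNTTC or TTCNNGAA, each its own reverse complement, and as 3 alternating units that extend such a pair. Capitals mark the matched pairs, which overlap where units are shared.

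Hspa1a: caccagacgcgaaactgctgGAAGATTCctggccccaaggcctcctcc
Hspa1b: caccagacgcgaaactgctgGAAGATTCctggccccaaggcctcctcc
Dnajb4: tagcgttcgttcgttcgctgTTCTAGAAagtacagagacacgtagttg
Dnaja1: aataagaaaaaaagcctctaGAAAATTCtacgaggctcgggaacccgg
Chordc1: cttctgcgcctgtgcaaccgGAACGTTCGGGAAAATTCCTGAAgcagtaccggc
Hspb8: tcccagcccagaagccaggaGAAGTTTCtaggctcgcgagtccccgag
HSPA1A: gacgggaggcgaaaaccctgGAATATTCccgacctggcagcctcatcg
HSPA1B: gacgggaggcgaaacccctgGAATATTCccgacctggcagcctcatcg
HSPA1L: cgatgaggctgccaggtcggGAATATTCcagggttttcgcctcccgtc

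These are windows chosen, after their levels were seen, from genes that have a pair: 6 mouse genes named in the W/W results and 3 human genes that stood higher after ATO. Mouse Hspa1a (chr17:34972233-34972280, minus strand) and Hspa1b (chr17:34959315-34959362, minus strand) had the same 48 letters, and 296 of the 300 bases of their promoters (98.7%) were the same. Human HSPA1A (chr6:31815417-31815464, plus strand) and HSPA1B (chr6:31827613-31827660, plus strand) differed at 1 of 48 bases. HSPA1L is read from the opposite strand of the HSPA1A window, so both genes have the same pair upstream of their starts, with its first base at -106 for HSPA1A and at -161 for HSPA1L. The other mouse windows were Dnajb4 (chr3:152193832-152193879, minus strand), Dnaja1 (chr4:40722324-40722371, plus strand), Chordc1 (chr9:18292243-18292296, plus strand, with overlapping pairs) and Hspb8 (chr5:116422835-116422882, minus strand). Their pairs began at -14 for Dnajb4, -124 for Dnaja1, from -4 to 11 for Chordc1 and at 2 for Hspb8. Those of Chordc1 and Hspb8 thus lay at the start of transcription or past it. Dnajb4 and Dnaja1 also have promoters at other starts, in which no pair was found.

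The 30 mouse genes had 40 promoters, since some have several starts. A pair was present in 18 of these 40, against 15.1% of all 32851 mouse promoters, and in 23 of 36 human promoters of the list, against 11.0% of 20046. The 3-unit form was present in 7 of 40 mouse and 9 of 36 human promoters, against 0.60% and 0.36% of all promoters. Counted by gene, 16 of the 30 mouse genes had a pair and 5 had the 3-unit form. Mouse promoters that overlap hold the same site more than once, as for the starts of Dnajb6 and of Hsph1. Mouse Hspd1 and Hspe1 also share their site, so these promoters are not independent. For comparison, the CCAAT box, searched on both strands, was found in 16 of the 40 mouse promoters and in 37.4% of all, and TATAAA in 2 of 40 and 13.6% of all. No pair was found in these windows of mouse Hspa4, Hspa4l, Hspa2, Dnajb2, Dnajb1, Ahsa1 and Bag1, or of human BAG3, DNAJB2 and HSPA4. A match describes letters only.

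Some of these genes share sequence with others, and the counting program and its handling of strand and of reads with several matches are not given in the sources used here. Of the 100-base windows along the longest transcript, 56.5% of Hspa1a and 49.9% of Hspa1b also occurred in another gene, mostly in each other, and 72.4% and 72.8% of human HSPA1A and HSPA1B. The share was 63.4% for Hspa8, 47.5% for Hsp90aa1, 70.8% for Hspa1l, 51.0% for Dnaja4 and 42.7% for Hspb1, so levels of these genes, and the split between Hspa1a and Hspa1b, are uncertain. It was 36.3% for Dnajb6, 26.9% for Hspd1, 24.0% for Dnaja1, 22.4% for Hspe1 and 10.0% for Ahsa1. For Dnajb4, Hspa4l, Hspa4, Hsph1, Chordc1, Dnajb2, Hspb8, Hspa2, Dnajb1, Bag1, Cdc37 and Fkbp4 it was 0.0%. Dnaja1 overlaps Smu1 and Chordc1 overlaps Gm19178 on the opposite strand, and Hspd1 and Hspe1 overlap each other, so reads of these partners cannot be told apart where strand was not used.

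The resting set of chaperones was abundant in every group. On the length-corrected FPKM scale, Hsp90ab1, the constitutive HSP90, was the highest of the 37 genes in all 7 groups, with a mean of 1089 in water tumours, 828 in progressing, 991 in regressing, 1272 in PBS grafts and 1132 in ATO grafts, and single-library values of 845 and 1050 in U937 after PBS and ATO. Hspa8, the constitutive HSP70, came second in water tumours at 354 FPKM, and Hspd1, the mitochondrial chaperonin HSP60, next at 228 FPKM. The inducible HSP70 genes were near the bottom of the same list in water tumours: Hspa1b had a mean of 1.99 FPKM and Hspa1a of 1.12 FPKM. In regressing tumours they stood at 25.4 and 8.21 FPKM.

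In W/W tumours the genes that passed a test were 4 co-chaperones (Dnajb4, Dnaja1, Dnajb2 and Chordc1), the exchange factors Hspa4l and Hspa4, the HSP70 gene Hspa2 and the small heat shock protein Hspb8. With edgeR's quasi-likelihood test and Benjamini-Hochberg adjustment over all 18119 genes tested, at an adjusted p under 0.05, all 37 genes were tested. Regressing against water, 3 were higher (3.13% of all genes) and 1 lower (4.57%). Progressing against water, 1 was higher (4.77%) and 0 lower (7.13%), and 9 had an unadjusted p under 0.05; DESeq2 called 3 higher and 0 lower. Regressing against progressing, 5 were higher (6.45%) and 1 lower (6.18%), and for both ATO outcomes together against water 2 were higher (3.57%) and 0 lower (7.30%), with 11 at an unadjusted p under 0.05 and 3 higher and 0 lower by DESeq2. As a share of the 37, the higher calls in regressing tumours were 8.11% against water and 13.5% against progressing, above the shares of all genes, and the other counts were near or below them. The median log2 fold change of the 37 was 0.23 in regressing against water (all genes -0.12), 0.03 in progressing against water (-0.04) and 0.03 in regressing against progressing (-0.07). These comparisons share libraries, water or ATO, so their values are not independent of each other.

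**Figure D1:**
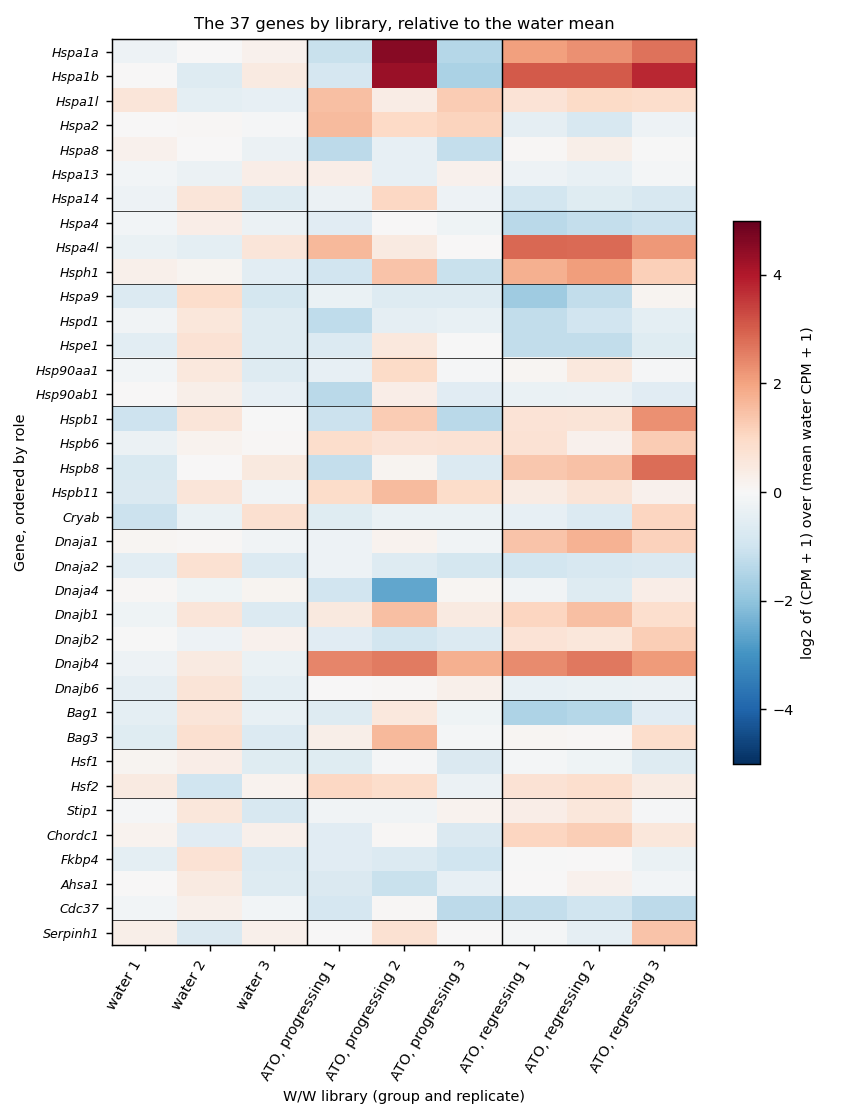
Heat map of the 37 genes (rows, by role, separated by thin lines) in the 9 W/W libraries (columns): colour gives log2 of (CPM + 1) in a library over (mean water CPM + 1). Dnajb4 is red in all 6 ATO libraries, Hspa4l, Dnaja1, Hspa1a and Hspa1b are red in the 3 regressing libraries, and Hspa1a and Hspa1b are darkest in progressing replicate 2 and blue in the other progressing libraries.

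Dnajb4, a J-domain co-chaperone of HSP70, was the gene of the list with the steadiest difference from water. Its level, in CPM scaled by TMM (edgeR's correction for library composition), was 12.9, 21.9 and 12.2 in water tumours, 90.1, 101 and 55.9 in progressing tumours and 85.1, 102 and 71.7 in regressing tumours. All 6 ATO libraries lay above all 3 water libraries, and the outcomes overlapped. Group means were 15.7 ± 5.40, 82.4 ± 23.5 and 86.1 ± 14.9 CPM (SD, n = 3 each). The log2 fold change was 2.40 in progressing against water (SE 0.36, edgeR adjusted p = 0.00420), 2.46 in regressing against water (SE 0.36, adjusted p = 0.00821) and 0.06 between the outcomes (SE 0.34, adjusted p = 0.915). The call against water held in 6 of 6 fits that left out a library in progressing tumours and in 5 of 6 in regressing tumours, where it was lost without regressing replicate 2 (adjusted p = 0.0526). For both outcomes together it was 2.43 (SE 0.33, adjusted p = 0.00370) and held in 9 of 9 such fits.

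Dnaja1, a cytosolic J-domain co-chaperone that drives the HSP70 cycle, was higher in regressing tumours. It measured 227, 226 and 190.0 CPM in water tumours, 182, 244 and 191 in progressing tumours and 570.2, 709 and 477 in regressing tumours. The 3 regressing libraries lay above the other 6, and water and progressing overlapped. Against water the log2 fold change was 1.45 (SE 0.29, edgeR adjusted p = 0.0198), and against progressing 1.51 (SE 0.29, adjusted p = 0.0159). The call against water was lost without regressing replicate 1 (adjusted p = 0.0939) or 2 (0.121), and that against progressing without progressing replicate 3 (0.0551) or regressing replicate 1 (0.0682) or 2 (0.0705). In progressing against water its log2 fold change was -0.06 (SE 0.28, adjusted p = 0.919).

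Dnajb2, a J-domain protein that sorts HSP70 clients to the proteasome, separated the outcomes. Its level was 15.8, 13.4 and 18.8 CPM in water tumours, 10.3, 7.93 and 9.67 in progressing tumours and 26.2, 23.9 and 39.0 in regressing tumours. The 3 groups did not overlap, with progressing lowest and regressing highest. Only the difference between the outcomes passed (log2 fold change 1.67, SE 0.38, edgeR adjusted p = 0.0231), and it was lost without progressing replicate 3 or any 1 regressing replicate (adjusted p from 0.0636 to 0.0853). Dnajb1, the classic inducible partner of HSP70, measured 64.2, 113 and 46.2 CPM in water, 106, 213 and 103 in progressing and 160, 215 and 135 in regressing tumours. Its regressing libraries lay above the water libraries without passing the test (log2 fold change 1.19, SE 0.42, adjusted p = 0.0952). In progressing against water it was 0.92 (SE 0.41, adjusted p = 0.171), and passed without water replicate 2 (1.35, adjusted p = 0.0494). Of the other J-domain genes, Dnajb6 (81.8, 177 and 80.8 CPM in water, 116, 117 and 134 in progressing, 86.3, 89.4 and 92.6 in regressing), Dnaja2 and Dnaja4 passed in no W/W comparison.

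**Figure D2:**
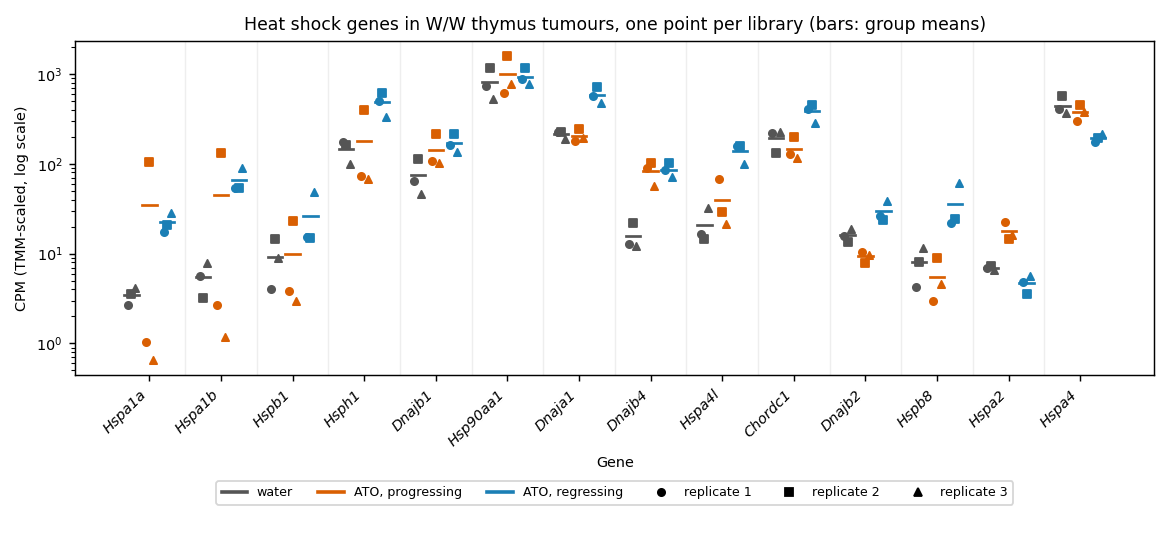
Levels of 14 heat shock genes in the 9 W/W libraries, in TMM-scaled CPM on a log axis, with 1 point per library, symbols for replicate numbers and bars for group means. Hspa1a in progressing tumours runs from 0.66 to 104 CPM, while the 3 regressing libraries lie between 17.6 and 28.5 CPM.

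The exchange factors of HSP70 moved in opposite directions in regressing tumours. Hspa4l, an HSP110-type chaperone, measured 16.5, 14.6 and 32.2 CPM in water, 67.4, 28.9 and 21.5 in progressing and 160, 157 and 99.6 in regressing tumours. Every regressing library was above every other library, and progressing and water overlapped. Its log2 fold change was 2.72 against water (SE 0.50, edgeR adjusted p = 0.0154) and 1.82 against progressing (SE 0.48, adjusted p = 0.0360). The first call was lost without regressing replicate 1 (adjusted p = 0.0700) or 2 (0.0787), and the second held only without progressing replicate 1. For both outcomes against water it was 1.81 (SE 0.44, adjusted p = 0.0276), lost without water replicate 1 or 2 or regressing replicate 1 or 2 and with the replicate number as a block (adjusted p = 0.0587), with progressing and water overlapping.

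Hspa4, the constitutive exchange factor of the same family, measured 406, 563 and 367 CPM in water, 298, 457 and 382 in progressing and 174, 194 and 213 in regressing tumours. The regressing libraries were the lowest 3. The log2 fold change against water was -1.20 (SE 0.30, edgeR adjusted p = 0.0389), a call that was kept in 1 of the 6 fits with a library left out, the fit without water replicate 3, and lost with no low-count filter (adjusted p = 0.0623). Against progressing it was -0.97 (SE 0.30, adjusted p = 0.0566). Hsph1, the inducible HSP110, measured 173, 160.1 and 100.4 CPM in water, 73.6, 393 and 67.1 in progressing and 502, 616 and 335 in regressing tumours. Its regressing libraries lay above all water libraries, and its progressing libraries lay on both sides of them. Against water Hsph1 had a log2 fold change of 1.75 (SE 0.63, adjusted p = 0.104), and it passed when only the groups compared were fitted (1.85, SE 0.35, adjusted p = 0.0260).

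The inducible HSP70 genes had the widest spread of the list. Hspa1a measured 2.70, 3.51 and 4.18 CPM in water tumours, 1.05, 104 and 0.66 in progressing tumours and 17.6, 20.7 and 28.5 in regressing tumours. Its raw counts were 42, 46 and 68 in water, 17, 1228 and 9 in progressing and 285, 294 and 433 in regressing. Hspa1b measured 5.60, 3.20 and 7.87 CPM in water, 2.64, 130 and 1.17 in progressing and 53.5, 53.6 and 88.7 in regressing tumours. For both genes the regressing libraries lay above all water libraries, while progressing replicate 2 was the highest of the 9 and the other progressing libraries were the lowest. Among progressing tumours the highest library was 157-fold over the lowest for Hspa1a and 111-fold for Hspa1b, at the 99.9th and 99.8th percentile of 15723 genes ranked by the SD of log2 levels. In regressing tumours these ratios were 1.62 and 1.66.

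The tests of Hspa1a and Hspa1b changed when that single library was left out. In the fit of all 9 libraries, which share an estimate of the spread, Hspa1a had a log2 fold change of 2.68 in regressing tumours over water (SE 1.41, edgeR adjusted p = 0.2399) and Hspa1b of 3.55 (SE 1.36, adjusted p = 0.119). With progressing replicate 2 alone removed from that fit, it was 2.78 (SE 0.44, adjusted p = 0.0147) and 3.64 (SE 0.48, adjusted p = 0.00919), and with only the water and regressing libraries fitted 2.76 (SE 0.38, adjusted p = 0.0163) and 3.61 (SE 0.43, adjusted p = 0.0126). In progressing against water Hspa1a had 3.34 (SE 1.45, adjusted p = 0.158), and without progressing replicate 2 it had -1.94 (SE 0.52, adjusted p = 0.0487), a call in the other direction. Hspa1b went from 3.0 (SE 1.33, adjusted p = 0.165) to -1.47 in the same change. Between the outcomes, Hspa1a had -0.66 (SE 1.32, adjusted p = 0.764) with all libraries and 4.72 (SE 0.59, adjusted p = 0.0115) without progressing replicate 2, and Hspa1b had 0.55 (SE 1.22, adjusted p = 0.790) and 5.11 (SE 0.63, adjusted p = 0.0114). Hsph1 and Hspa8 also passed between the outcomes without that library, at 2.81 (SE 0.41, adjusted p = 0.0166) and 1.38 (SE 0.34, adjusted p = 0.0454).

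The library with high Hspa1a and Hspa1b was also high in some other stress genes, though not in all of the list. In progressing replicate 2, Hspb1 was at 23.2 CPM against 3.87 and 3.004 in the other progressing libraries, Bag3 at 58.3 against 22.7 and 17.3, and Hsp90aa1 at 1589 against 613 and 772. Zfand2a, an HSF1 target outside the list, was at 198 CPM there and at 42.4 and 60.7 in the other progressing libraries. Of the 37 genes, 22 were highest of the group in progressing replicate 2. Others were lowest there: Dnaja4 was at 1.69 CPM against 7.32 and 16.5, and Ahsa1 at 85.8 against 111 and 139. That library also had the highest adipocyte marker sum of its group, 1366 CPM against 121 and 243, beside its mitochondrial share of 8.83%. The part of these measures in the result was not tested.

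The constitutive HSP70 gene Hspa8 measured 1857, 1648 and 1313 CPM in water, 648, 1217 and 702 in progressing and 1660, 1944 and 1564 in regressing tumours. The progressing libraries were the lowest 3 of the 9. The difference from water did not pass (log2 fold change -0.91, SE 0.36, edgeR adjusted p = 0.1232), nor did that between the outcomes (1.01, SE 0.36, adjusted p = 0.0860). Hspa2, an HSP70 gene known from male germ cells, measured 6.95, 7.32 and 6.58 CPM in water, 22.6, 14.7 and 16.1 in progressing and 4.88, 3.59 and 5.66 in regressing tumours. The groups did not overlap, with progressing highest. Hspa2 was lower in regressing than in progressing tumours (-1.92, SE 0.44, adjusted p = 0.0249), a call kept in 2 of 6 fits with a library left out, those without progressing replicate 1 or 2. Hspa1l, Hspa13 and Hspa14 passed in no W/W comparison.

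Among the small heat shock proteins, which bind unfolding proteins without ATP, Hspb8, the partner of Bag3 in selective autophagy, was higher in regressing than in progressing tumours. It measured 4.25, 8.08 and 11.7 CPM in water, 2.95, 9.03 and 4.62 in progressing and 21.7, 24.0 and 61.5 in regressing tumours. All 3 regressing libraries were above the other 6, with replicate 3 the highest. The log2 fold change was 2.69 against progressing (SE 0.63, edgeR adjusted p = 0.0255), kept only without progressing replicate 2 among 6 such fits, and 2.16 against water (SE 0.61, adjusted p = 0.0566). Hspb1, encoding HSP25 in the mouse, measured 3.99, 14.5 and 8.98 CPM in water, 3.87, 23.2 and 3.004 in progressing and 15.4, 15.01 and 48.2 in regressing tumours. Its regressing and water libraries did not overlap, by a narrow margin, and no comparison passed (log2 fold change 1.52, SE 0.84, adjusted p = 0.263 against water). Cryab, Hspb6 and Hspb11 passed in no W/W comparison.

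Regressing replicate 3 was the highest library of its group for 19 of the 37 genes (51.4%, against 43.0% of all genes), among them Hspb8, Hspb1, Cryab and Serpinh1. Serpinh1, which folds collagen, was at 158 CPM there and at 53.4 and 42.3 in the other regressing libraries. The adipocyte marker sum was 5703 CPM in that library, against 156 and 682 in the other regressing libraries and 40.6 to 144 in water, where Lep was at 0 in every library. The part of these markers in the levels was not tested.

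Neither HSP90 gene passed the test in a W/W comparison. Hsp90aa1, the inducible form, measured 744, 1171 and 523 CPM in water, 613, 1589 and 772 in progressing and 868, 1170 and 774 in regressing tumours, and Hsp90ab1 3617, 4342 and 2633, then 1405, 4417 and 2378, then 2771, 2912 and 2382. All groups overlapped for both genes. Against water in regressing tumours the log2 fold change was 0.21 (SE 0.44, edgeR adjusted p = 0.793) for Hsp90aa1 and -0.39 (SE 0.45, adjusted p = 0.601) for Hsp90ab1.

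Of the HSP90 co-chaperones, Chordc1 (Morgana), which binds HSP90 through its CHORD domains, was higher in regressing than in progressing tumours. It measured 218, 131 and 226 CPM in water, 130, 197 and 116 in progressing and 406, 454 and 288 in regressing tumours. The 3 regressing libraries were above all others. The log2 fold change was 1.37 against progressing (SE 0.35, edgeR adjusted p = 0.0319), kept without progressing replicate 2 or regressing replicate 3 and lost in the other 4 such fits, and 1.00 against water (SE 0.34, adjusted p = 0.0919). Cdc37, which hands kinases to HSP90, measured 326, 427 and 330.1 CPM in water, 201, 381 and 144 in progressing and 157, 179 and 145 in regressing tumours. Its regressing libraries lay below all water libraries (-1.17, SE 0.37, adjusted p = 0.0729), and this passed when only the groups compared were fitted (-1.07, adjusted p = 0.0364). Fkbp4, an immunophilin of steroid receptor complexes (214, 508 and 189 CPM in water, 204, 188 and 153 in progressing, 297, 312 and 244 in regressing), and Ahsa1, which speeds the HSP90 ATPase (189, 252 and 118, then 111, 85.8 and 139, then 191, 218 and 169), passed in no W/W comparison. Stip1, the bridge between HSP70 and HSP90, did not pass either.

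The mitochondrial chaperones and the regulators were not called in any W/W comparison. Hspd1 measured 593, 985 and 434 CPM in water, 281, 493 and 514 in progressing and 284, 344 and 475 in regressing tumours, and its cofactor Hspe1 249, 600 and 227, then 221, 519 and 357, then 154, 151 and 234. Water replicate 2 was the highest of its group for both. Hsf1 itself measured 81.2, 91.9 and 48.3 CPM in water, 48.1, 70.6 and 44.7 in progressing and 68.3, 63.5 and 47.4 in regressing tumours, overlapping throughout (regressing against water -0.31, SE 0.33, edgeR adjusted p = 0.573). Bag3 measured 11.8, 32.4 and 11.1 CPM in water, 22.7, 58.3 and 17.3 in progressing and 19.8, 19.2 and 34.9 in regressing tumours (0.42, SE 0.57, adjusted p = 0.665). Bag1 measured 109, 235 and 118 CPM in water, 99.3, 225 and 133 in progressing and 52.4, 56.9 and 103 in regressing tumours (-1.12, SE 0.43, adjusted p = 0.122). Its 3 regressing libraries lay below the water libraries.

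**Figure D3:**
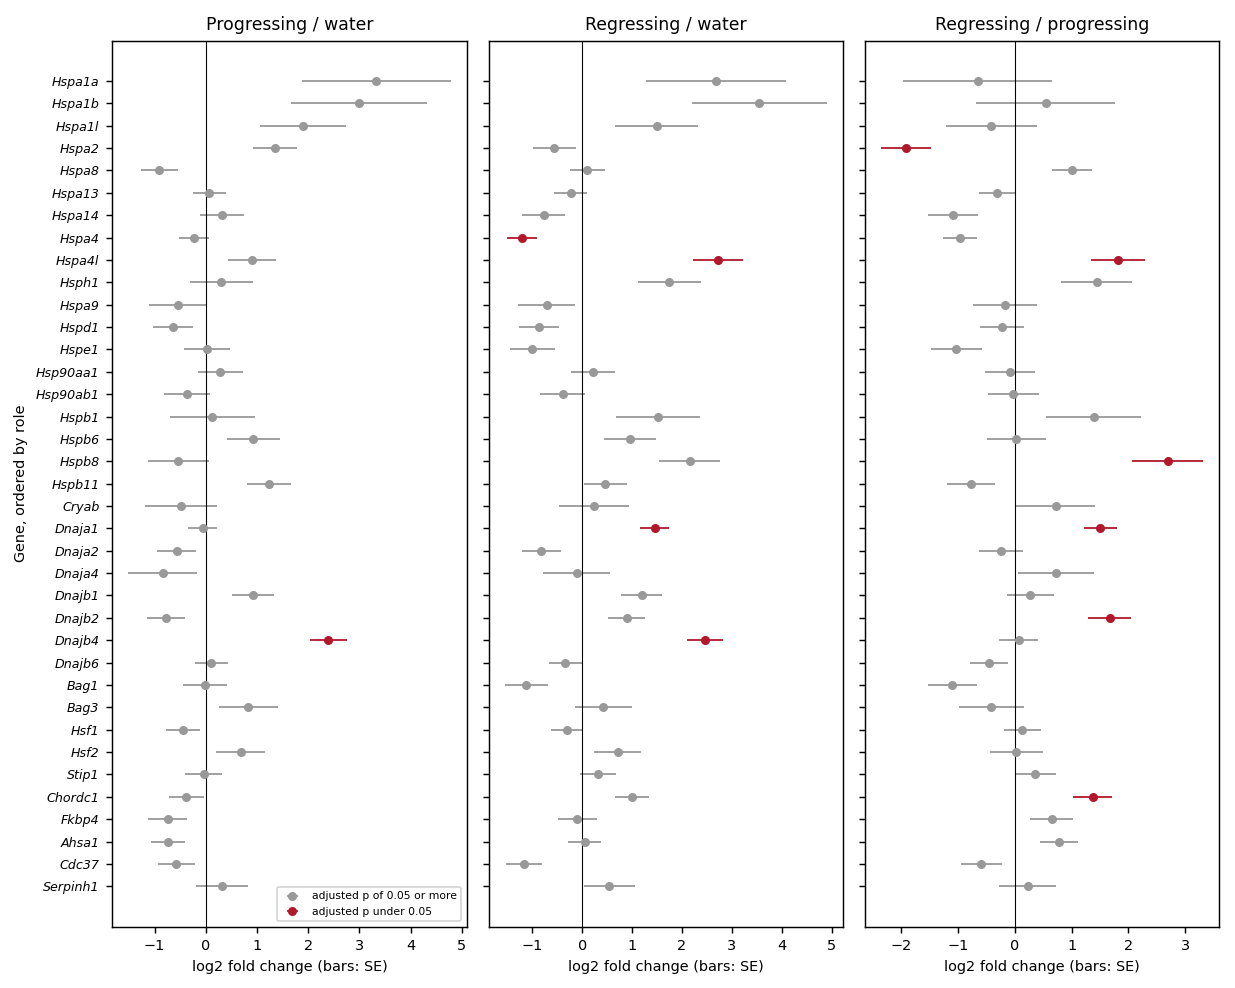
Fitted log2 fold changes of the 37 genes (points) with their standard errors (bars) in 3 W/W comparisons, with genes past an adjusted p of 0.05 in red. Dnajb4 is red in both comparisons with water at 2.40 and 2.46 and lies at 0.06 between the outcomes, and the widest bars are those of Hspa1a and Hspa1b.

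Among other genes of the protein folding system, few W/W differences passed and most were falls. Among all genes, 4.57% were lower and 3.13% higher in regressing against water, and 7.13% and 4.77% in progressing against water. A lean to falls against water was thus not particular to these lists. Between the outcomes 6.18% of all genes were lower and 6.45% higher. Of the 8 subunits of TRiC, the chaperonin that folds actin and tubulin, 1 was lower in regressing against water and 1 in regressing against progressing, with a median log2 fold change of -1.07 against water. Of 6 prefoldin subunits, which deliver clients to TRiC, 1 was lower against water and 2 were lower against progressing. Of 12 endoplasmic reticulum chaperones, 2 were lower in progressing against water: Pdia4 (log2 fold change -2.22, SE 0.36, edgeR adjusted p = 0.00557) and Hyou1 (-1.20, SE 0.33, adjusted p = 0.0386), and 1 in regressing against water. Of 11 other J-domain genes, 2 were lower between the outcomes, Dnajc2 (-1.55, adjusted p = 0.0199) and Dnajc8 (-1.23, adjusted p = 0.0374), and 1 was lower in regressing against water. Of 18 further HSP90 and HSP70 co-chaperones, 1 was higher between the outcomes, Ahsa2 (1.24, adjusted p = 0.0213), and 0 passed against water.

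Of 5 further HSF1 targets, 0 passed against water in either ATO group, and between the outcomes 1 was higher and 1 lower in regressing tumours. Dedd2 measured 29.3, 47.6 and 25.3 CPM in water, 13.04, 28.9 and 19.1 in progressing and 64.4, 80.0 and 45.8 in regressing tumours (difference between outcomes 1.64 on the log2 scale with an SE of 0.41, edgeR adjusted p = 0.0305). Zfand2a measured 30.5, 46.8 and 26.7 CPM in water, 42.4, 198 and 60.7 in progressing and 21.9, 26.3 and 22.6 in regressing tumours (-2.09, SE 0.53, adjusted p = 0.0332). These targets of the same factor thus lay on opposite sides. Of 9 other mitochondrial chaperones and proteases, 0 passed in a W/W comparison. Of 7 tested among 10 further heat shock factors and small chaperones, Hsf4 was lower in progressing against water (-2.99, adjusted p = 0.0189) and Hspa12a lower in regressing against progressing (-3.76, adjusted p = 0.0363).

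Cell type markers moved with the same groups. The summed level of 10 T-lineage markers ran from 1306 to 2435 CPM in water, from 3297 to 4998 in progressing and from 4783 to 8514 in regressing tumours, with 4 of 10 called higher in regressing against water. The sum of 6 thymic epithelial markers ran from 85.1 to 740 CPM in water, from 23.2 to 77.8 in progressing and from 1134 to 1317 in regressing tumours, with 5 of 6 higher in regressing against progressing. Fibroblast markers ran from 335 to 943, from 786 to 1337 and from 131 to 439 CPM, macrophage markers from 1545 to 2244, from 252 to 1178 and from 412 to 809 CPM, and B-cell markers from 62.4 to 3097, from 3.20 to 27.3 and from 89.7 to 136 CPM. In such bulk tissue, fewer cells of a type and less RNA per cell cannot be told apart, and the part of cell composition in the levels of the heat shock genes was not tested.

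In the C57 grafts the differences that passed were falls in HSP90 co-chaperones and other constitutive folding genes after ATO. All 37 genes were among the 15468 tested; 0 were higher (7.37% of all genes) and 6 were lower (6.57%), 10 had an unadjusted p under 0.05, and DESeq2 called 0 higher and 8 lower. The lower calls were 16.2% of the 37. The median log2 fold change of the 37 was -0.06, against 0.04 for all genes. In 20 genes (54.1%) the PBS and ATO libraries did not overlap, against 61.7% of all genes tested. ATO lay below PBS in 15 of them (40.5% of the 37, against 30.1% of all genes) and above it in 5 (13.5%, against 31.6%). With 2 libraries a group, each call rests on few samples, and a fit that leaves 1 library in a group assumes that it varies like the other group.

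Ahsa1 fell from 223 and 245 CPM after PBS to 114 and 133 after ATO (means 234 ± 15.4 and 123.4 ± 12.9, SD, n = 2; log2 fold change -0.92, SE 0.20, edgeR adjusted p = 0.0165), and it passed in 4 of 4 fits with a library left out. Cdc37 fell from 507 and 432 to 226 and 273 CPM (-0.91, SE 0.21, adjusted p = 0.0186). Fkbp4 fell from 711 and 634 to 331 and 444 CPM (-0.79, SE 0.22, adjusted p = 0.0346). So 3 of the 5 HSP90 co-chaperones of the list were lower, with no overlap between the groups. The call of Cdc37 was lost without PBS replicate 1, and that of Fkbp4 without PBS replicate 1 or ATO replicate 1 and with the replicate number as a block (adjusted p = 0.0596). Stip1 and Chordc1 did not pass; Chordc1 measured 121 and 173 CPM after PBS and 144 and 139 after ATO.

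Bag1, an exchange factor that links HSP70 to the proteasome, fell from 376 and 368 CPM after PBS to 198 and 222 after ATO (log2 fold change -0.82, SE 0.20, edgeR adjusted p = 0.0216), a call lost without PBS replicate 1. Hspe1 fell from 514 and 622 to 266 and 373 CPM (-0.83, SE 0.23, adjusted p = 0.0343), lost without PBS replicate 2 or ATO replicate 1. Dnajb6, a J-domain protein that keeps aggregation-prone proteins soluble, fell from 92.6 and 90.6 to 60.3 and 47.9 CPM (-0.76, SE 0.21, adjusted p = 0.0371), kept only without ATO replicate 1 among fits with a library left out, and lost with the replicate block (adjusted p = 0.0538). None of these 3 had overlapping groups. Hspd1, which works with Hspe1 and lies next to it, measured 803 and 776 CPM after PBS and 556 and 962 after ATO, and its groups overlapped.

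**Figure D4:**
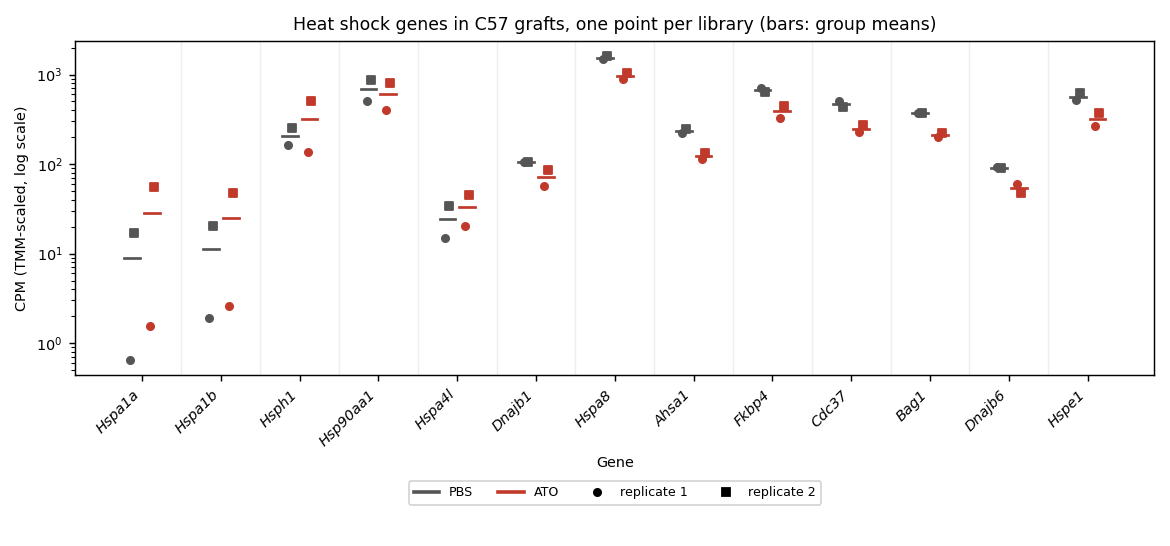
Levels of 13 heat shock genes in the 4 C57 graft libraries, in TMM-scaled CPM on a log axis, with circles for replicate 1, squares for replicate 2 and bars for group means. Hspa1a and Hspa1b are higher in both libraries numbered 2 than in both numbered 1, whereas the ATO points of Ahsa1, Fkbp4, Cdc37, Bag1, Dnajb6 and Hspe1 lie below both PBS points.

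The inducible HSP70 genes did not separate the grafts by treatment. Hspa1a measured 0.65 and 17.2 CPM after PBS and 1.55 and 55.8 after ATO, from raw counts of 9, 256, 21 and 850. Hspa1b measured 1.89 and 20.5 CPM after PBS and 2.58 and 48.0 after ATO. Both libraries numbered 2 were above both numbered 1, so the groups overlapped. Between the PBS libraries the ratio was 26.2 for Hspa1a and 10.8 for Hspa1b, and between the ATO libraries 36.1 and 18.7, where the median SD of log2 levels over all genes was 0.18 and 0.20. On the log2 scale ATO over PBS was 1.68 for Hspa1a (adjusted p = 0.366 in edgeR, SE 1.21) and 1.18 for Hspa1b (SE 1.02, adjusted p = 0.463). For Hspa1a it was 5.42 without PBS replicate 2 and -2.54 without ATO replicate 2, each past the threshold (adjusted p = 0.0201 and 0.00843), so the sign rested on single libraries. Hspa1b likewise went to 3.72 without PBS replicate 2 and to -2.14 without ATO replicate 2. It stood at 0.30 without PBS replicate 1 and at 2.08 without ATO replicate 1. For Hspa1a it was 0.74 without PBS replicate 1 and 2.63, past the threshold, without ATO replicate 1.

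In 7 of the 37 genes both libraries numbered 2 lay above both numbered 1 (18.9%, against 9.90% of all genes tested), Hspa4 and Hspa13 among them; Dnajb1, Hspb1 and Bag3 did not show this order. Hsph1 measured 162 and 253 CPM after PBS and 138 and 506 after ATO, and Hsp90aa1 502 and 863 after PBS and 405 and 799 after ATO. Hspa4l measured 14.8 and 33.9 CPM after PBS and 20.5 and 45.2 after ATO. With all libraries the log2 fold change of Hsph1 was 0.63 (SE 0.45, edgeR adjusted p = 0.354). It was -0.61 without ATO replicate 2 and 1.27 without ATO replicate 1. Without PBS replicate 1 or 2 it was 0.34 or 0.97. Sums of markers did not follow the same order in both groups: the fibroblast sum was 493 and 245 CPM after PBS and 643 and 1668 after ATO, and the skeletal muscle sum 270 and 35.7 after PBS and 384 and 409 after ATO. Their part in the split was not tested.

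The remaining genes followed in every sample did not pass with all 4 libraries. Hspa8 measured 1479 and 1614 CPM after PBS and 884 and 1038 after ATO (log2 fold change -0.69, SE 0.21, edgeR adjusted p = 0.0509), with no overlap. Dnajb1 measured 105 and 106, then 56.9 and 84.8 CPM (-0.57, SE 0.23, adjusted p = 0.112), also with no overlap. Without ATO replicate 2 both passed, Hspa8 at -0.82 (adjusted p = 0.0331) and Dnajb1 at -0.91 (0.0233). Hsp90ab1 measured 4286 and 3881, then 2702 and 3626 CPM (-0.37, SE 0.23, adjusted p = 0.306). Their direction was down in each case, as it was for Dnaja1 (288 and 363, then 227 and 257 CPM). Dnajb4, which was higher in ATO-treated W/W tumours, measured 34.7 and 41.4 CPM after PBS and 47.0 and 51.9 after ATO (0.38, SE 0.22, adjusted p = 0.265). Hspb1 measured 5.16 and 1.81, then 3.90 and 4.99 CPM, Bag3 12.9 and 9.05, then 12.95 and 12.3, and Hsf1 65.5 and 53.9, then 83.4 and 58.5, none past the threshold. Hspa4 (467 and 493, then 463 and 523 CPM), Dnajb2 (27.5 and 25.3, then 25.2 and 20.9), Hspb8 (5.31 and 0.94, then 8.61 and 5.51) and Hspa2 (17.7 and 17.0, then 15.01 and 16.9) did not pass.

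TRiC and prefoldin subunits were among the other folding genes that passed in the C57 grafts, where 6.57% of all genes were lower. Of 8 TRiC subunits 4 were lower and 0 higher, among them Cct5, at 876 and 765 CPM after PBS and 442 and 466 after ATO (log2 fold change -0.85, edgeR adjusted p = 0.0216), Cct3 (-0.81, adjusted p = 0.0232) and Cct4 (-0.74, adjusted p = 0.0359). Of 6 prefoldin subunits 3 were lower and 0 higher: Pfdn5, at 319 and 330.0 CPM after PBS and 169 and 110 after ATO (-1.22, adjusted p = 0.0113), Pfdn6 (-0.93, adjusted p = 0.0185) and Pfdn1 (-0.68, adjusted p = 0.0451). Of 9 mitochondrial chaperones and proteases 2 were lower, Grpel1, the exchange factor of mitochondrial HSP70 (-1.12, adjusted p = 0.0103), and Clpp (-0.87, adjusted p = 0.0293). Of 18 further co-chaperones 1 was lower, Hspbp1 (-1.03, adjusted p = 0.0183), and of 6 tested further heat shock factors and small chaperones 1, Hsbp1 (-0.66, adjusted p = 0.0483). None passed among 12 endoplasmic reticulum chaperones, 11 further J-domain genes and 5 further HSF1 targets. Mt1 and Mt2, metallothioneins that bind heavy metals, were lower after ATO (-0.94, adjusted p = 0.0456, and -1.16, adjusted p = 0.0347), and Hmox1 did not pass (-0.50, adjusted p = 0.271).

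With these falls, marker sums of several cell types also differed between the graft groups. The T-lineage sum was 8902 and 7065 CPM after PBS and 5817 and 4795 after ATO, and the macrophage sum 791 and 609, then 360 and 322 CPM. Of 10 T-lineage genes tested, 1 was called higher and 1 lower. Fibroblast markers rose in 4 of 7 genes tested, and the mitochondrial share of counts was 0.52% and 1.02% after PBS and 5.98% and 4.03% after ATO. Their part in the falls was not tested.

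In U937 cells HSPA1A, HSPA1B, BAG3 and 5 J-domain genes were among those higher in the ATO library. Of the 37 genes, 33 had a mean of at least 1 CPM; HSPA2, HSPB6, HSPB8 and SERPINH1 did not. Past 1.5-fold on the log2(CPM + 1) scale, 13 were higher (28.2% of all 13722 genes) and 1 lower (17.9%). With 1 library a group there is no replicate check and no test, and intervals (exact, 95%) take in the error of counting alone, and reads that carry no molecular identifier need not be independent molecules. The median of all genes was itself shifted, at 0.13 on the log2 scale. With TMM scaling that median was -0.07, 21.2% of all genes were past the fold upward and 24.7% downward, and 12 heat shock genes were higher and 2 lower, HSPD1 joining the lower ones (-0.69).

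HSPA1A had 472 counts after ATO and 60 after PBS, or 28.7 and 3.36 CPM, a ratio of 8.55 (6.52 to 11.4). BAG3, the exchange factor that directs clients to autophagy, had 352 and 56 counts, a ratio of 6.83 (5.14 to 9.22), and HSPA1L, the neighbour of HSPA1A, had 251 and 46, a ratio of 5.93 (4.31 to 8.30). HSPA1B had 1584 and 548 counts, or 96.3 and 30.7 CPM, a ratio of 3.14 (2.85 to 3.47). The promoter windows of HSPA1A, HSPA1B and HSPA1L are shown above because these genes were higher, so their levels say nothing further about the element. Reads can be exchanged between HSPA1A and HSPA1B. CRYAB, a small heat shock protein, had 34 counts after ATO and 0 after PBS, with a lower limit of the ratio of 9.48; its mean fell below the 1 CPM filter under TMM scaling.

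Of the 7 J-domain genes, 5 were higher, where 28.2% of all genes were (21.2% with TMM scaling). DNAJB2 had 888 and 237 counts after ATO and PBS, a ratio of 4.07 (3.52 to 4.72), DNAJB1 had 3180 and 1533, a ratio of 2.25 (2.12 to 2.40), and DNAJA1 had 6326 and 3221, a ratio of 2.13 (2.04 to 2.23). DNAJA4 had 156 and 83, a ratio of 2.04 (1.55 to 2.70), and DNAJB4 had 364 and 199, a ratio of 1.99 (1.67 to 2.37). Only DNAJA2 and DNAJB6 of this family stayed within 1.5-fold, the latter at 1.39. HSPB1, or HSP27, had 8615 and 4057 counts, a ratio of 2.31 (2.22 to 2.40). HSPA9, the mitochondrial HSP70, had 20512 and 11863, a ratio of 1.88 (1.84 to 1.92), and HSPH1 had 7790 and 4559, a ratio of 1.86 (1.79 to 1.93).

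HSPA8, both HSP90 genes, HSPD1, HSPE1 and the 5 HSP90 co-chaperones stayed within 1.5-fold with summed counts, of which HSPD1 did not with TMM scaling. The ratio was 1.14 for HSPA8 (1716 and 1508 CPM), 1.19 for HSP90AA1 (1672 and 1407 CPM), 1.24 for HSP90AB1 (3129 and 2518 CPM), 0.72 for HSPD1 (1086 and 1511 CPM) and 0.99 for HSPE1. HSF1 itself had 1465 and 2047 counts, a ratio of 0.78 (0.73 to 0.83). Among HSP90 co-chaperones it was 0.92 for FKBP4, 0.86 for AHSA1, 0.86 for CHORDC1 and 1.35 for CDC37, and it was 1.25 for BAG1 and 1.08 for HSPA4. HSPA4L alone was past the fold downward, with 330 and 850 counts and a ratio of 0.42 (0.37 to 0.48).

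**Figure D5:**
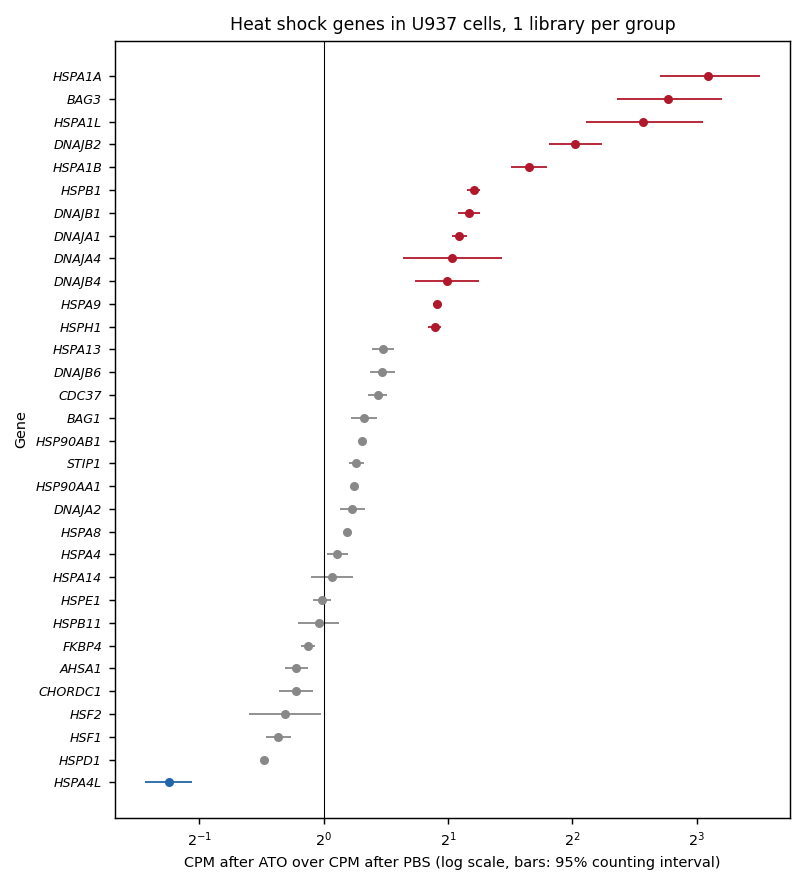
Ratio of CPM after ATO to CPM after PBS in U937 cells for 32 heat shock genes above the filter, on a log axis, with 95% counting intervals as bars; red and blue mark genes past 1.5-fold upward and downward, and CRYAB is left out because it had 0 counts after PBS. The ratio runs from 0.42 for HSPA4L to 8.55 for HSPA1A, and HSP90AA1, HSP90AB1 and HSPA8 lie between 1.14 and 1.24.

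All 5 further HSF1 targets were past 1.5-fold upward in U937, among them ZFAND2A with 464 counts after ATO and 65 after PBS (log2 ratio 2.66) and DEDD2 (1.32). Endoplasmic reticulum chaperones went mostly the other way, with 1 of 12 higher and 7 lower: DNAJB9 had a log2 ratio of 1.67, PDIA4 of -2.22 and PDIA6 of -2.05. Of 8 TRiC subunits 2 were lower, CCT7 (-0.92) and CCT6A (-0.62), and of 6 prefoldin subunits 1 was higher, PFDN5 (1.28). Of 17 further co-chaperones 4 were higher and 3 lower, the latter STUB1 (-1.18), FKBP5 (-1.16) and PPP5C (-1.08). Of 9 mitochondrial chaperones and proteases 1 was higher, LONP1 (0.79), and 2 lower, TRAP1, the mitochondrial HSP90 (-2.39), and CLPB (-0.60). Of 11 further J-domain genes DNAJB12 was higher (0.62) and DNAJB5 lower (-1.16), and of 2 further heat shock factors and small chaperones above the filter HSF4 was higher (0.62). These lists were counted with summed counts, where 28.2% of all genes were past the fold upward and 17.9% downward. With TMM scaling the shares of all genes were 21.2% and 24.7%. That scaling lowers each ratio, so upward values near the limit, such as those of DNAJB12 and HSF4, need not pass under it. Counts of these lists with TMM scaling are not given here.

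Arsenic markers were far higher in the same library. HMOX1, heme oxygenase, had 31427 counts after ATO and 204 after PBS, MT2A had 28991 and 701, and MT1X had 5372 and 271. The summed level of 10 myeloid markers was 805 CPM after ATO and 2686 after PBS, with 6 of 9 tested past 1.5-fold downward and 2 upward. The part of this shift in the heat shock genes was not tested.

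Set side by side, the systems differed in which members moved, though they were sequenced in separate tables and a difference between systems was not tested. Dnajb4 had log2 fold changes of 2.40 and 2.46 against water in progressing and regressing W/W tumours, 0.38 in C57 grafts and a log2 ratio of 0.93 in U937. Dnaja1 had 1.45 in regressing W/W tumours, -0.06 in progressing ones, -0.42 in C57 grafts and a log2 ratio of 1.09 in U937. Hspa4l had 2.72 and 0.90 in regressing and progressing W/W tumours, 0.43 in C57 grafts and -1.21 in U937. Ahsa1 had 0.05, -0.73, -0.92 and -0.22 in regressing tumours, progressing tumours, C57 grafts and U937. For Hmox1, which stood 7.27 higher on the log2 scale in U937, the log2 fold change was -1.63 (SE 0.72, edgeR adjusted p = 0.170) in regressing and 0.11 (SE 0.70, adjusted p = 0.942) in progressing W/W tumours.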

How the data were processed

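RNA-seq values of 9 W/W, 4 C57 and 2 U937 libraries were used. For each system the authors deposited a table of unnormalized gene counts with FPKM values beside them. Per the labels' protocols, RNA was taken up in TRIzol and a SMARTer kit was used for the libraries; part of that text describes a cell culture and not these tissues. Per the submitters' processing notes, FastQC 0.10.1, cutadapt 1.9.1 and HISAT2 2.0.1 were used and the builds GRCm38 and mm10 were named; how reads were counted, with or without strand, and on which annotation is not given in the sources used here. The W/W table used GRCm38 coordinates (98.9% of genes had the start and end of GENCODE vM21), the U937 table GRCh38 (98.1% as in GENCODE v44) and the C57 table a build that is not named (2.60%), so no C57 coordinates are given. The deposited FPKM values were used only to compare levels between genes; the total behind them exceeded the summed counts by 0.106% to 2.33% in the W/W table.

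The test was that of edgeR 4.0.16 under R 4.3.3 (filterByExpr, TMM, quasi-likelihood F test, Benjamini-Hochberg adjustment over all genes tested, adjusted p under 0.05). One fit held the 9 W/W libraries in 3 groups, and another the 4 C57 libraries. Each standard error is the fold change divided by the root of its F statistic. CPM were computed on TMM-scaled library sizes in the mouse tables and summed counts in U937, where the log2 ratio with a pseudocount of 1 CPM was computed without a test where the mean of both libraries was 1 CPM or more. Alternatives were DESeq2 1.42.0, its size factors in edgeR, no low-count filter, only the groups compared, a replicate block, progressing replicate 2 removed from the W/W fit (chosen after seeing the data) and each library left out in turn, and for U937 TMM scaling, a pseudocount of 0.1, no filter and a 2-fold limit. The method was tested on simulated data. Tables were handled in Python 3.11.15 with pandas 2.3.3 and scipy 1.17.1.

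The 37 genes, the pathway lists, the marker lists and the tests were chosen with earlier results of these data known. By the rule for named genes, all members are accounted for; 11 of them (Hspa1a, Hspa1b, Hspa8, Hsp90aa1, Hsp90ab1, Hsph1, Dnajb1, Hspb1, Bag3, Hsf1 and Hspd1) and every member past the threshold in a replicated comparison are given in every sample, as are, in U937, those past 1.5-fold. Pathway genes are given as counts per list, with values for at most 3 genes a list in the comparison with most of the list called, for mouse and for U937. Hmox1, Mt1 and Mt2 served as checks. Some results are not reported here.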

Additional observations from a re-analysis of the deposited data

Results flagged for a closer look

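For 6 genes the difference from water was not the same in the outcome groups, since the difference between regressing and progressing W/W tumours itself passed the threshold (edgeR's quasi-likelihood test, Benjamini-Hochberg adjusted). As regressing over progressing, the log2 fold change was 1.37 for Chordc1 (adjusted p = 0.0319), 1.82 for Hspa4l (0.0360), 1.67 for Dnajb2 (0.0231), 1.51 for Dnaja1 (0.0159), 2.69 for Hspb8 (0.0255) and -1.92 for Hspa2 (0.0249).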

How the results depend on the processing

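No gene called with all libraries changed direction in its comparison under the alternatives run. Hspa1a and Hspa1b in C57 grafts, not called so, had calls of both signs, the downward ones in a fit that left 1 ATO library. In regressing against water, where 4 members were called, 8 were called with no low-count filter (Hspa4 no longer among them), 9 with only the groups compared and 9 with progressing replicate 2 removed from the shared fit (chosen after seeing the data), and leaving out a library gave 0 to 4. In progressing against water, where 1 was called, DESeq2 called 3, no low-count filter 3, and leaving out a library 1 to 3. In regressing against progressing, where 6 were called, leaving out a library gave 0 to 9; the 0 arose without progressing replicate 3, regressing replicate 1 or regressing replicate 2, and the 9 without progressing replicate 2. For both outcomes against water, where 2 were called, no filter gave 5 and leaving out a library 1 to 3; a fit of only the groups compared would be the same fit and was not run. In C57 grafts, where 6 were called, no filter gave 10 (2 higher and 8 lower) and leaving out a library 4 to 10. With DESeq2 the counts were 6 in regressing against water, 8 between the outcomes, 3 for both outcomes and 8 in C57 grafts. With the replicate number as a replicate block, the counts were 6, 1, 6 and 2 in the W/W comparisons, in that order, with Dnajb1 called in place of Hspa4l for both outcomes, and 5 in C57 grafts, where Fkbp4 and Dnajb6 were no longer called and Hspa1a was (log2 fold change 1.56, adjusted p = 0.0341). Same-numbered W/W libraries had correlations of deviations from -0.12 to 0.14, and differently numbered ones from -0.165 to 0.175. With 3 libraries a group these values cannot show whether the numbers pair them. The C57 libraries had -0.13 for the same and 0.13 for crossed numbers. With 2 libraries a group these are opposite in sign by construction, so they do not settle it either. A crossed replicate block, chosen after seeing the data, called 8. In U937, where 14 were past 1.5-fold, TMM scaling, a pseudocount of 0.1 and no filter each gave 14, and a 2-fold limit gave 10. Over genes called in a comparison, 60 of 108 fits with a library left out kept the call, and 92 of 97 fits under the other alternatives did. Depth limited the lowest genes: Hspa1a had 9 counts in 1 progressing and 1 PBS library.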
